A study of Mus musculus with 6 samples.

Results

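The enzymes that turn cholesterol into androgens and other steroids were compared in mouse prostate tumor cells between untreated tumors and separate tumors under androgen withdrawal. The set holds 10 enzyme genes: Cyp11a1, Cyp17a1, Hsd3b1, Hsd3b6, Srd5a1, Srd5a2, Srd5a3, Hsd17b3, Akr1c18 and Cyp19a1. A gene was measured here if a row of the deposited array table was annotated with its symbol and no other, and the row brightest over all arrays was used where there were several. This gave 7 of the 10 genes, among 30142 genes named in the same way. Srd5a1, Srd5a2 and Cyp19a1 had no such row and were not analysed here.

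The samples were tumor cells from MCRedAL allografts, grown from a mouse prostate cancer line that carries the red fluorescent protein mCherry, in male mice of unstated strain and age. There were 3 untreated tumors (titled Intact) and 3 tumors of mice given degarelix under the skin (titled 7dPC, a tag the labels do not explain). Degarelix blocks the receptor of gonadotropin-releasing hormone in the pituitary and so shuts down testosterone from the testis. In both groups the sort kept mCherry-positive cells without CD45, CD11b or the macrophage antigen that Adgre1 encodes. The RNA was hybridised to Affymetrix MTA 1.0 arrays, with 1 array per sample. The titles number the samples of each group as biological replicates 1 to 3, and each was taken here as 1 tumor. All tumors come from a single cell line, so they share its genetics. The p-values set each difference between the groups against the spread among samples of the same group, here 3 and 3.

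Androgens are made from cholesterol in a chain of steps that is strongest in the Leydig cells of the testis and in the adrenal gland. Cyp11a1 cuts the side chain of cholesterol, Cyp17a1 and the 3-beta-hydroxysteroid dehydrogenases convert the product toward androstenedione, Hsd17b3 reduces that to testosterone, and reductases of the Srd5a family can then make dihydrotestosterone. In prostate cancer under androgen withdrawal, enzymes of this chain inside the tumor are of interest as a possible local source of androgen. In mice the adrenal contributes little androgen, because it expresses little Cyp17a1.

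Values are log2 expression values, with 1 unit standing for a doubling. The arrays carry 23 background rows, whose probes match no mouse sequence by design and which show how bright unspecific binding can be. On each array the median background row lay at 3.20 to 3.35 and the brightest at 6.59 to 6.93. Background rows differ in base composition and that of the enzyme probes is not known here, so a value between these limits may or may not be signal. Brightness also differs between probes for the same amount of RNA, and levels of different enzymes were therefore not ranked against each other.

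None of the 7 measured enzymes was above the brightest background row on all 6 arrays, and none passed the test for a change after degarelix. Most genes also miss that limit, since 8607 of all 30142 genes were above it on all 6 arrays. Among the enzymes 1, Srd5a3, was above it on 3 arrays. In limma (p-values adjusted after Benjamini and Hochberg across the whole gene table, called under 0.05), 0 of 7 enzymes passed, against 11.7% of all genes, and 1 of 7 had an unadjusted p under 0.05, against 26.2% of all genes. The adjusted p of the enzymes ranged from 0.103 to 0.911. In the plot of levels by sample, the enzymes fall into those near the median background row, those in the middle of the background range and Srd5a3 at its upper end.

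**Figure D1:**
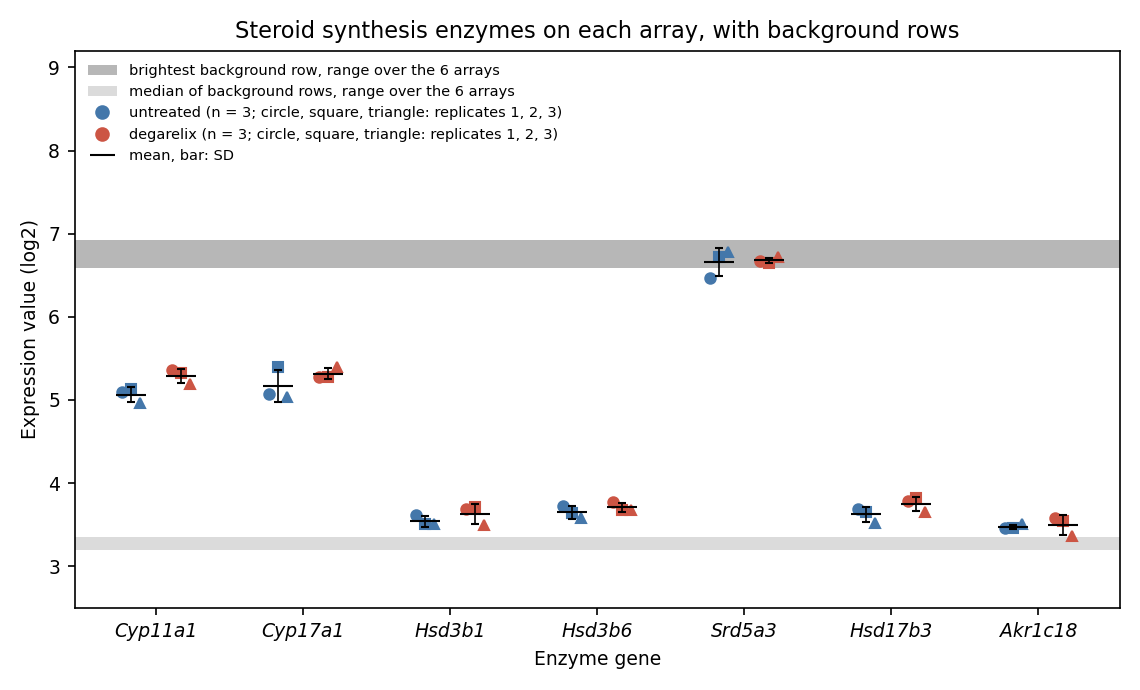
Log2 expression values of the 7 measured enzyme genes on each of the 6 arrays (blue untreated, red degarelix, shapes for replicates), with the group mean and SD and, as grey bands, the range over arrays of the median and the brightest background row. Srd5a3 alone reaches the band of the brightest background row (6.59 to 6.93), and the values of the groups overlap for every gene except Cyp11a1.

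Cyp11a1 is the side-chain cleavage enzyme, the entry step of all steroid hormone synthesis. Its values were 5.10, 5.13 and 4.96 in the untreated tumors and 5.35, 5.32 and 5.20 in the degarelix tumors. Every degarelix value was thus above every untreated value, as happened for 31.2% of all genes in either direction. The mean went from 5.06 ± 0.09 to 5.29 ± 0.08 (SD, n = 3 per group), a difference of 0.23 (SE 0.08, 95% interval 0.05 to 0.40) that did not pass the test across all genes (limma adjusted p = 0.103). A second cluster of probes for Cyp11a1 had means of 4.65 ± 0.02 and 4.78 ± 0.04, and its difference of 0.13 (SE 0.06) did not pass either (limma adjusted p = 0.251 among all clusters). Both clusters showed groups without overlap, at levels in the middle of the background range. With arrays weighted by their quality the first cluster did pass (change 0.25, limma adjusted p = 0.0184), under a setting that called 9912 genes in all.

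Cyp17a1 carries out the hydroxylation and lyase steps that commit a steroid to the androgen branch. It was at 5.07, 5.39 and 5.03 in untreated and at 5.27, 5.28 and 5.39 in degarelix tumors. The groups overlapped, since untreated replicate 2 was as high as the highest degarelix sample. The means were 5.17 ± 0.20 and 5.31 ± 0.07 (SD, n = 3 per group), a difference of 0.15 (SE 0.10, limma adjusted p = 0.386). The difference was 0.26 without untreated replicate 2 and 0.08 without untreated replicate 3, and passed in neither case (limma adjusted p = 0.125 and 0.728). On every array 15 of the 23 background rows were dimmer than Cyp17a1, and the same held for Cyp11a1.

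Hsd3b1 and Hsd3b6 encode 3-beta-hydroxysteroid dehydrogenases of steroid-making tissue, which turn pregnenolone and dehydroepiandrosterone into progesterone and androstenedione. In the RefSeq gene order a single gene model, Gm12428, lies between them, and Hsd3b3 lies on the other side of Hsd3b6. Hsd3b1 was at 3.62, 3.50 and 3.51 in untreated and at 3.69, 3.71 and 3.50 in degarelix tumors. Hsd3b6 was at 3.73, 3.64 and 3.58 in untreated and at 3.77, 3.68 and 3.67 in degarelix tumors. The groups overlapped for both genes, and degarelix replicate 3 was the lowest sample of all for Hsd3b1. The differences were 0.09 (SE 0.08) for Hsd3b1 and 0.06 (SE 0.07) for Hsd3b6, with limma adjusted p of 0.509 and 0.606. On every array 12 of the 23 background rows were dimmer than either gene. The sequences of this family are close to each other, and whether their probes share signal was not tested.

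Hsd17b3 is the testis enzyme that reduces androstenedione to testosterone. It was at 3.69, 3.66 and 3.53 in untreated and at 3.78, 3.82 and 3.65 in degarelix tumors. The lowest degarelix value lay between the untreated ones, so the groups overlapped. The mean went from 3.63 ± 0.09 to 3.75 ± 0.09 (SD, n = 3 per group), a difference of 0.12 (SE 0.08, limma adjusted p = 0.352). Its level was also close to the median background row, with 12 or 13 of 23 rows dimmer.

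Srd5a3 belongs by sequence to the steroid reductases, but its established task is the reduction of polyprenol to dolichol, the lipid that carries sugars in protein glycosylation. It was at 6.47, 6.72 and 6.79 in untreated and at 6.67, 6.65 and 6.72 in degarelix tumors. The untreated samples held both the lowest and the highest value, and the degarelix samples lay between them. The means were 6.66 ± 0.17 and 6.68 ± 0.04 (SD, n = 3 per group), a difference of 0.02 (SE 0.09, 95% interval -0.19 to 0.23, limma adjusted p = 0.911). Srd5a3 was above the brightest background row in untreated replicates 2 and 3 and in degarelix replicate 3. The sign of its small change depended on the setting: the change was -0.03 with each array centred on its median and -0.08 without untreated replicate 1.

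Akr1c18 is an aldo-keto reductase that breaks down progesterone, best known from the ovary at the end of pregnancy. It was at 3.46, 3.46 and 3.51 in untreated and at 3.59, 3.54 and 3.36 in degarelix tumors. The degarelix samples lay on both sides of the untreated ones, with replicate 3 the lowest of all 6. The difference was 0.02 (SE 0.08, limma adjusted p = 0.860), and it was -0.02 with median centring, with cyclic loess, with quantile normalization and without degarelix replicate 1. On every array 12 of the 23 background rows were dimmer than Akr1c18.

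The differences of the enzymes in array values were small. The 95% intervals of the 7 differences reached from -0.19 to 0.40 on the log2 scale, at most 1.14-fold lower and 1.32-fold higher. These intervals hold for the array values. Near background the array understates a change in RNA, so they do not bound the change in transcript amount. All 7 differences were above 0, with a median of 0.09. The same median was 0.04 over all genes, of which 58.7% were above 0, and 0.06 over the 18975 genes that never exceeded the brightest background row, of which 70.6% were above 0. The median background row differed by 0.05 between the groups in the same direction. Background rows did not share that direction throughout, with 0.02 for the brightest row and -0.05 for the dimmest row of each array. After centring each array on its median, Srd5a3 and Akr1c18 turned negative and the median of the 7 was 0.04. Over all alternatives tried, single samples left out included, the differences ran from 0.14 to 0.27 for Cyp11a1, from 0.06 to 0.26 for Cyp17a1 and from 0.07 to 0.18 for Hsd17b3. They ran from 0.04 to 0.17 for Hsd3b1 and from 0.01 to 0.10 for Hsd3b6.

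**Figure D2:**
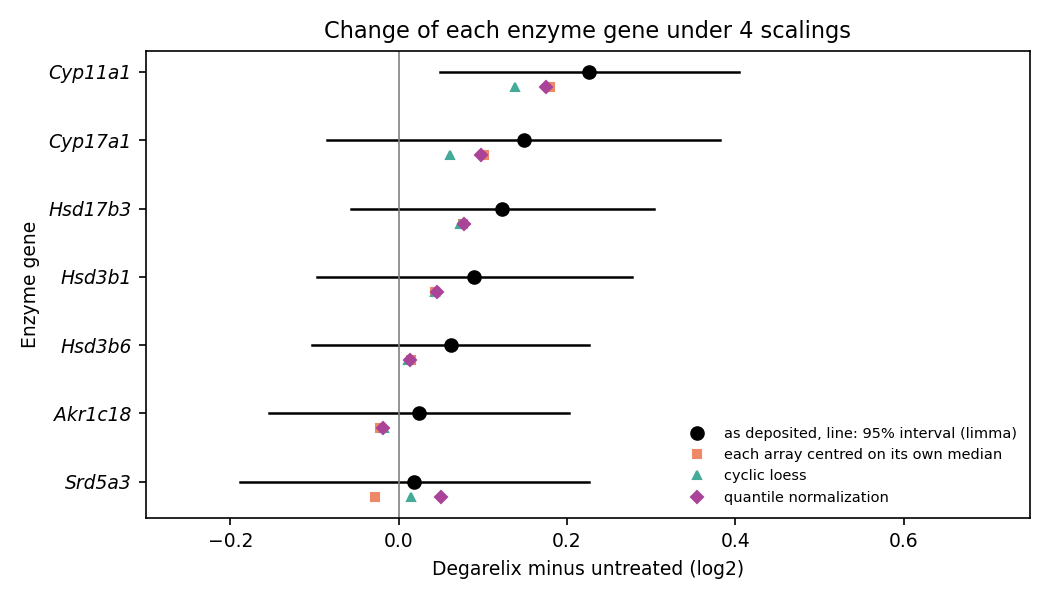
Difference between degarelix and untreated tumors for each of the 7 enzyme genes on the log2 scale, with the 95% interval from limma (black), and the difference after 3 other scalings (coloured points). The intervals of all genes but Cyp11a1 include 0, and the other scalings place every gene except Srd5a3 lower than the deposited values do.

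The lowest and highest arrays of the enzymes coincided in part, and whether the enzymes moved in step was not tested. Untreated replicate 3 was the lowest array for 4 of the 7 enzymes but the highest for Srd5a3 (6.79). It also had the dimmest median background row (3.20). Degarelix replicate 1 was the highest array for 3 of the enzymes and had the brightest median background row (3.35). Other background rows differed in order. The brightest row was highest in untreated replicate 1 (6.93) and lowest in untreated replicate 3 (6.59). The dimmest row of each array was highest in untreated replicate 2 (2.23). The part of the background level in the enzyme values was not tested. Set against the median background row of their own array, Akr1c18 stood 0.13 to 0.31 above it and Hsd3b1 0.24 to 0.43. The same distance was 0.38 to 0.47 for Hsd3b6 and 0.33 to 0.53 for Hsd17b3. Cyp11a1 stood 1.77 to 2.04 above it, Cyp17a1 1.81 to 2.16 and Srd5a3 3.21 to 3.59.

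A second yardstick gave a similar grouping. Olfactory receptor genes, which are read by 1225 rows of this kind and are expected to be silent outside the nose, had a median of 3.10 to 3.25 per array and a 95th percentile of 4.87 to 5.22. Cyp11a1, Cyp17a1 and Srd5a3 lay above that percentile on all 6 arrays, and Hsd3b1, Hsd3b6, Hsd17b3 and Akr1c18 on none. The last 4 were brighter on average than 68.7% to 75.4% of the olfactory receptor genes. Cyp11a1, Cyp17a1 and Srd5a3 were brighter on average than 95.7%, 96.2% and 99.8% of them.

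Among the enzymes, Cyp17a1 had the largest spread over the 6 arrays (SD 0.15). The genes whose values followed it best over these 6 arrays, among 18564 compared, were Acaa1a (Pearson r = 0.986), a gene of peroxisomal fatty acid breakdown, Mir532 (0.962) and the T cell receptor segment Trav10n (0.962). With 6 arrays and so many genes, 48 genes had a correlation above 0.9. Mir532 and Trav10n lay within the background range themselves, at 4.17 and 2.59 on average. None of these 3 genes passed the test for a change after degarelix (limma adjusted p = 0.513 to 0.721).

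Markers of the cells that make steroids in the gonads and the adrenal also lay within the background range, apart from 1 value of Inha. Of 7 such markers 5 were measured, none of which was above the brightest background row on all 6 arrays or passed the test in limma. Star, which moves cholesterol into mitochondria and limits steroid synthesis, was at 5.28 to 5.55 in untreated and 5.38 to 5.54 in degarelix tumors. Nr5a1, the regulator of steroidogenic cell identity, was at 6.12 to 6.22 and 6.18 to 6.34. Inha was at 6.36 to 6.66 and 6.60 to 6.76, above the brightest background row in degarelix replicate 2 alone. On average 20 of the 23 background rows were dimmer than Nr5a1 and 22 were dimmer than Inha. The mean level of the 5 markers was 5.26 to 5.34 in untreated and 5.34 to 5.50 in degarelix samples.

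The other markers set the frame for all results. Of 9 prostate luminal markers 7 were measured; Krt8, Krt19, Foxa1 and Hoxb13 were above the brightest background row on all 6 arrays, while Krt18, Epcam and Cdh1 were above it on none. The luminal markers had a mean level of 7.06 to 7.16 in untreated and 7.40 to 7.46 in degarelix samples. Krt19 rose by 1.88, and the other 6 did not pass. Of the 7 differences 5 were above 0, while Hoxb13 and Foxa1 had -0.19 and -0.06. The 9 measured leukocyte markers had a mean level of 4.99 to 6.07 in untreated and 5.01 to 5.09 in degarelix samples, with untreated replicate 1 the highest, and none passed the test. In that sample Ptprc, Itgam and Adgre1, the genes of the sorted-out antigens, were at 4.47, 6.16 and 6.05, below its brightest background row, while the myeloid genes Lyz2 and Tyrobp were above it at 9.02 and 8.39. Lyz2 and Tyrobp were also above the brightest background row in untreated replicate 3 (7.65 and 6.84) and in no other sample. The 7 measured fibroblast markers had a mean level of 7.65 to 7.98 in untreated and 8.09 to 8.83 in degarelix samples, and 2 of them, Dcn and Fbln1, rose by 1.46 and 1.07. The 5 endothelial markers had a mean level of 5.70 to 6.12 in untreated and 5.66 to 5.71 in degarelix samples; Cdh5 was above the brightest background row on all 6 arrays, and none passed the test. In sorted bulk samples, fewer cells of a type and less RNA per cell cannot be told apart.

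Other genes were counted from 9 lists. These hold genes that deliver, modify, carry or sense steroids or regulate their synthesis, and N-glycosylation genes related to Srd5a3. Of 97 measured genes, 13 rose, 4 fell and 80 did not pass, against 4.19% of all genes higher and 7.51% lower. Without the N-glycosylation list there were 87 genes, of which 13 rose, 4 fell and 70 did not pass. The median change of the 97 genes was 0.09, against 0.04 for all genes and 0.06 for genes never above the brightest background row. The 17 genes that passed lay in 5 of the 9 lists. Of the 97 genes 28 were above the brightest background row on all 6 arrays, and 9 of these 28 passed. Another 60 of the 97 were never above that row. Among all genes above it on all 6 arrays 21.9% passed, and among all genes never above it 4.45% passed. The count of 17 fell to 8 without degarelix replicate 1 and to 9 without degarelix replicate 2.

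**Figure D3:**
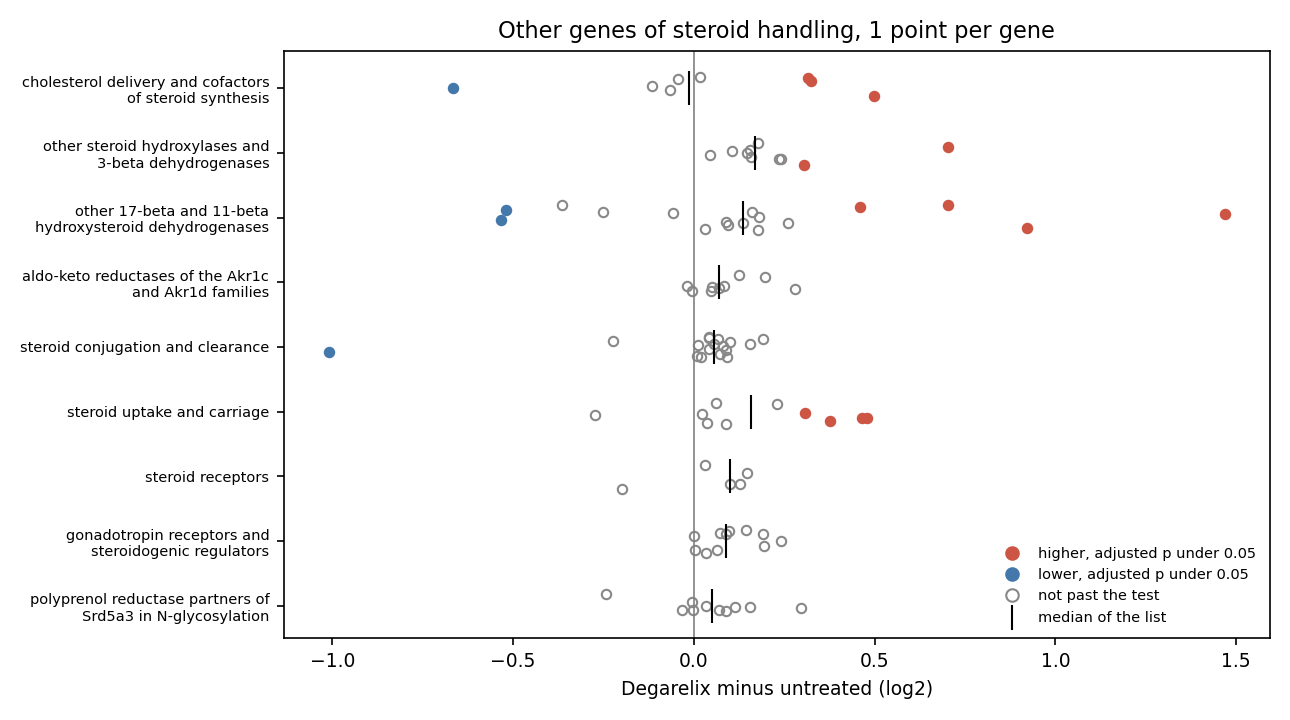
Difference between degarelix and untreated tumors on the log2 scale for each of 97 genes in 9 lists (1 point per gene, filled where the adjusted p in limma was under 0.05, with the median of the list as a bar). The points past the test lie in 5 of the lists, from Sult1e1 at -1.01 to Dhrs9 at 1.47, and none lies in the lists of Akr1c and Akr1d reductases, steroid receptors, regulators and N-glycosylation.

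Upstream of the enzymes, 8 of 11 genes of cholesterol delivery and electron transfer were measured, of which 3 rose and 1 fell (median change -0.01). Tspo, an outer mitochondrial membrane protein that binds cholesterol, rose from 10.74, 10.93 and 11.01 to 11.39, 11.32 and 11.45, a difference of 0.50 (SE 0.09, limma adjusted p = 0.00834). Stard4, a cytosolic sterol carrier, fell from 5.90, 6.16 and 5.99 to 5.36, 5.47 and 5.22 (change -0.67, SE 0.09, limma adjusted p = 0.00333). All 6 values of Stard4 lay below the brightest background row. The late endosomal sterol carrier gene Stard3 rose by 0.32 and the cytochrome b5 reductase gene Cyb5r3 by 0.32 (limma adjusted p = 0.0133 and 0.0374). The call of Stard3 ended on leaving out untreated replicate 2 or either of degarelix replicates 1 and 2 (limma adjusted p = 0.0527, 0.0529 and 0.0633). Cyb5r3 lost it with median centring (0.119) and on leaving out any sample other than untreated replicate 3 (limma adjusted p = 0.0643 to 0.134). Fdx1, the ferredoxin that feeds electrons to Cyp11a1, was well above background at 8.15 and 8.08 on average, with a change of -0.07 (limma adjusted p = 0.636).

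Of 10 measured hydroxylases and further 3-beta-hydroxysteroid dehydrogenases 2 rose and none fell (median change 0.17). Cyp27a1, the sterol hydroxylase that makes an oxysterol from cholesterol, rose from 7.91, 8.05 and 8.12 to 8.69, 8.68 and 8.82, a difference of 0.70 (SE 0.08, limma adjusted p = 0.00117). Its values were above the brightest background row on all 6 arrays. Cyp7b1, which hydroxylates oxysterols and some androgen metabolites, rose by 0.31 from 4.38 ± 0.05 to 4.69 ± 0.02 (SD, n = 3 per group, limma adjusted p = 0.0196), within the background range. Its call was lost on leaving out untreated replicate 2 or 3 or degarelix replicate 1 or 2 (limma adjusted p = 0.0642 to 0.0855).

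Among the dehydrogenases that interconvert active and inactive steroids was the largest change of the 97 genes, that of Dhrs9. Of 17 measured genes 4 rose and 2 fell (median change 0.13). Dhrs9, a short-chain dehydrogenase that oxidises retinol and some androgen metabolites, rose from 4.59, 5.19 and 5.71 to 6.65, 6.57 and 6.68, a difference of 1.47 (SE 0.23, limma adjusted p = 0.00511). The untreated values were widely spread and lay within the background range, and 1 of the 6 values, that of degarelix replicate 3, was just above the brightest background row.

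Hsd11b1, which regenerates active glucocorticoid inside cells, rose from 5.08, 4.97 and 5.03 to 5.88, 5.69 and 5.63 (change 0.70, SE 0.08, limma adjusted p = 0.00135). No value of Hsd11b1 exceeded the brightest background row. All 7 measured fibroblast markers had differences above 0, of which 2, Dcn and Fbln1, passed. Dcn went from 6.94, 7.35 and 8.02 to 8.71, 8.55 and 9.43. Within the degarelix group Hsd11b1 was lowest and Dcn highest in replicate 3. The part of fibroblasts in the Hsd11b1 values was not tested. Hsd17b12, an enzyme of fatty acid elongation that can also reduce keto-steroids, fell from 9.92, 10.06 and 9.99 to 9.41, 9.46 and 9.50 (change -0.53, SE 0.07, limma adjusted p = 0.00212). Hsdl2, a peroxisomal relative of these enzymes, fell by 0.52 (SE 0.08, limma adjusted p = 0.00371). Both were above the brightest background row on all 6 arrays.

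The remaining calls of this list, named here after their values were seen, were Hsd17b11 and Dhrs11. Hsd17b11, a lipid droplet protein with activity on androgen metabolites, went from 9.37, 8.24 and 8.80 to 9.72, 9.66 and 9.79 (change 0.92, SE 0.23, limma adjusted p = 0.0365). It lost its call with each of the other scalings (limma adjusted p = 0.0579 to 0.0683) and on leaving out untreated replicate 3 or any degarelix sample (0.0855 to 0.119). Dhrs11, a keto-steroid reductase, rose by 0.46 (limma adjusted p = 0.0258). Its call was lost with median centring (0.0803) and on leaving out untreated replicate 3 or either of degarelix replicates 1 and 3 (limma adjusted p = 0.0827, 0.0989 and 0.0646).

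No change was detected among the relatives of Akr1c18. None of the 9 measured genes of the Akr1c and Akr1d families passed, none was above the brightest background row on any array, and the median change was 0.07. Akr1c13 had the smallest adjusted p, with a difference of 0.28 (limma adjusted p = 0.127).

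Of 17 measured genes of steroid conjugation and clearance 1 fell and none rose (median change 0.06). The gene that fell was Sult1e1, the estrogen sulfotransferase, which went from 6.62, 6.20 and 7.28 to 5.79, 5.51 and 5.78. The difference was -1.01 (SE 0.23, limma adjusted p = 0.0256), and 1 of the 6 values, that of untreated replicate 3, was above the brightest background row. Its call was lost without degarelix replicate 1, 2 or 3 (limma adjusted p = 0.0784, 0.0868 and 0.0589). The glucuronosyltransferase genes of the Ugt2b family, which clear androgens, had changes between 0.01 and 0.09 at levels near the median background row.

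Of 10 genes of steroid uptake and carriage 4 rose and none fell (median change 0.16). Slco2a1, a prostaglandin carrier of the organic anion transporter family, rose from 9.39, 9.61 and 9.75 to 10.09, 10.06 and 9.998 (change 0.47, SE 0.10, limma adjusted p = 0.0187). It was the only one of the 4 above the brightest background row on any array. Slco1a5, another organic anion transporter, rose by 0.48 (SE 0.07, limma adjusted p = 0.0046), with means of 3.35 and 3.83 near the median background row. Slc10a6, a carrier of sulfated steroids, and Slco2b1, which takes up steroid sulfates, rose by 0.38 and 0.31 (limma adjusted p = 0.0218 and 0.0265), also within the background range. Slco2a1 and Slc10a6 lost their calls with median centring (limma adjusted p = 0.0582 and 0.0524). On leaving out samples, Slco2a1 lost it without degarelix replicate 1 or 2 (0.0768 and 0.0676), Slc10a6 without untreated replicate 2 or degarelix replicate 1 or 2 (0.0519 to 0.0754), and Slco2b1 without any sample other than untreated replicate 1 or degarelix replicate 3 (limma adjusted p = 0.0928 to 0.101).

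**Figure D4:**
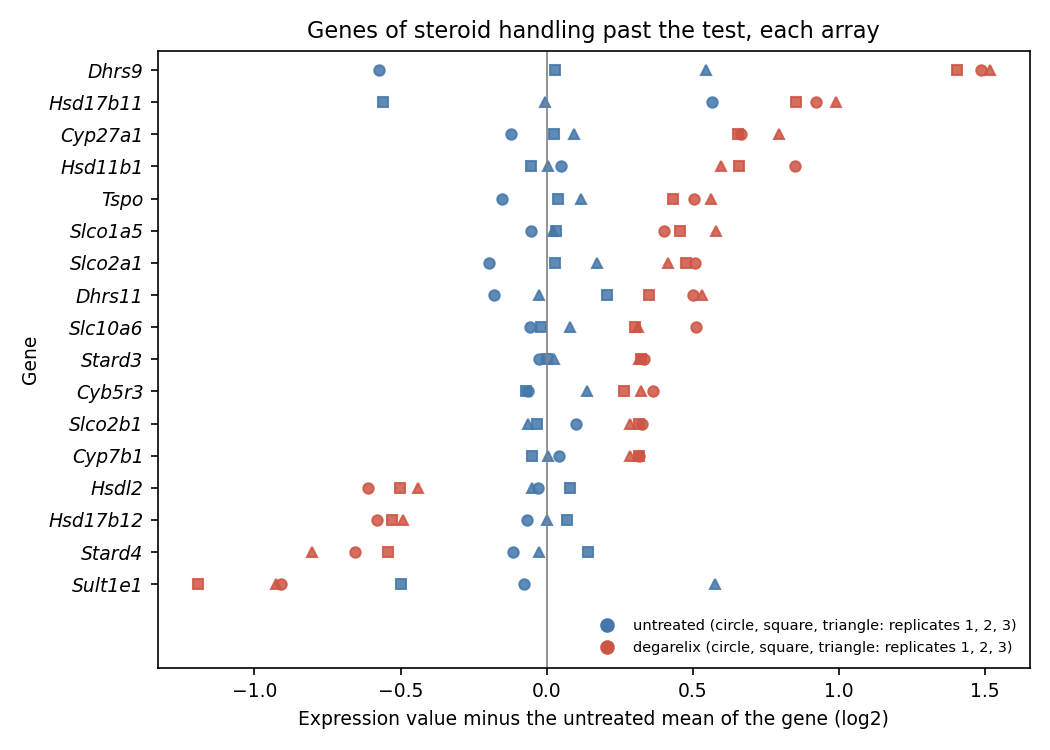
Values of the 17 steroid-handling genes past the test on each of the 6 arrays, as the distance from the mean of the untreated samples of that gene (log2; blue untreated, red degarelix, shapes for replicates). The groups do not overlap for any of the 17 genes, which their choice by a test on these same values largely fixes. Among all genes 31.2% have groups without overlap in either direction. The untreated samples are widest apart for Dhrs9, Hsd17b11 and Sult1e1.

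No steroid receptor or steroidogenic regulator passed the test. Of 5 measured receptor genes none passed; the androgen receptor gene was not analysed here. Esr1, the estrogen receptor alpha gene, had the smallest adjusted p of them, with a change of -0.20 (limma adjusted p = 0.181). Among the alternatives Esr1 passed with array weights alone (limma adjusted p = 0.0441). Of 11 measured gonadotropin receptors and regulators none passed. Nr0b1, a repressor of steroidogenic genes, had a change of 0.24 (limma adjusted p = 0.114). It passed without untreated replicate 1 and with array weights (limma adjusted p = 0.0273 and 0.0251). Gnrhr, the receptor that degarelix blocks, was at 2.99 to 3.16 in untreated and 3.09 to 3.34 in degarelix tumors, at the level of the median background row.

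Of 10 measured genes that make dolichol or use it in N-glycosylation, as Srd5a3 does, none passed (median change 0.05). Unlike the steroid enzymes, 8 of the 10 were above the brightest background row on all 6 arrays. Alg5, a glucosyltransferase gene of this pathway, had a change of 0.30 (limma adjusted p = 0.0687). It passed with cyclic loess, quantile normalization and array weights (limma adjusted p = 0.00521, 0.00502 and 0.0216).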

How the data were processed

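The authors deposited log2 values of expression, made with Affymetrix Expression Console and RMA per the submitters' processing notes, which state no version or setting. RMA removes background, brings all arrays to 1 distribution and combines the probes of a transcript cluster, so changes of dim genes are compressed. Values ran from 1.69 to 13.9. Of 65956 clusters 30604 had 1 gene symbol and 2146 had several; 6732 control rows were left out of the tests. Entrez identifiers and a RefSeq table served to update 827 symbols, none of them an enzyme here. The brightest cluster of each of 30142 genes was tested.

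The groups were tested against each other with limma 3.58.1 under R 4.3.3 (lmFit, then eBayes), two-sided, Benjamini-Hochberg adjusted over all genes. In simulated data for this comparison with 30142 genes, limma called 87 of 100 genes changed by a log2 of 1, 47 of 100 changed by 0.5 and 7 of 29942 unchanged genes. Far fewer genes were changed in the simulation than passed in the real data, and changes near background were not compressed. These rates may therefore not carry over to the enzymes.

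The enzymes and lists were chosen with earlier results of these data known. The genes named were all enzymes, up to 4 genes per list by adjusted p among those past the test (or the one with the smallest adjusted p), and the 3 genes most correlated with an enzyme, passing over unnamed models and olfactory and vomeronasal receptors. Alternatives were 3 other scalings, a variance trend, weights for arrays, leaving out dim genes, averaging the clusters of a gene, blocking on replicate number, dropping each sample in turn and other background limits. Python 3.11.15, pandas 2.3.3 and matplotlib 3.10.9 were used.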

Additional observations from a re-analysis of the deposited data

How the results depend on the processing

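The count of 0 enzymes past the test held under every alternative tried except array weights, which called 1 (Cyp11a1). Array weights also called 38 of the other listed genes instead of 17, and 9912 genes in all instead of 3526. Leaving out each sample in turn gave 0 enzymes, 8 to 20 of the other listed genes and 1590 to 4700 genes in all. The lowest counts were without degarelix replicate 1. The change of Srd5a3, 0.019 on the deposited values, was -0.0284 with median centring and -0.0519 with array weights, and ran from -0.0753 (without untreated replicate 1) to 0.0816 (without untreated replicate 3). That of Akr1c18, 0.025 on the deposited values, was -0.0225 with median centring, -0.0176 with cyclic loess and -0.0182 with quantile normalization, and ran from -0.0196 (without degarelix replicate 1) to 0.0914 (without degarelix replicate 3). The cause of these moves was not tested. The number of enzymes above background on all 6 arrays depended on the limit. All 7 were above the median background row and 3 above the 95th percentile of olfactory receptor genes. Above the 90th percentile of the background rows there were 0. Srd5a3 missed this last limit only in untreated replicate 1 (6.47 against 6.50). Deviations of same-numbered samples from their group means correlated by 0.16, 0.04 and 0.20, so the numbers were not taken to pair the samples. With the replicate number as a block 0 enzymes, 17 of the other listed genes and 3806 genes in all passed. Signal near background and 3 arrays per group limit what could be detected.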
